A study of Homo sapiens with 52 samples.

Results

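The expression of 9 histone acetyltransferase genes, CREBBP, EP300, KAT2A, KAT2B, KAT5, KAT6A, KAT6B, KAT7 and KAT8, was followed by RNA-seq in fusion-positive rhabdomyosarcoma (FP-RMS) cells under inhibitors of chromatin proteins. The genes were chosen by symbol from the 27043 genes listed for each of the 52 samples, and all 9 passed the filter on low values that left 16359 genes to be tested. FP-RMS is a childhood tumour with skeletal muscle features, and the cells carry the PAX3-FOXO1 fusion. The screen held 20 compounds at 6 h, each with 1 high-dose and 1 low-dose sample, and 4 DMSO (solvent) samples, 2 at 0.2% to match the high dose and 2 at 0.1% to match the low dose. A separate 6 h experiment held 1 sample of N1302 at 1 µM and 1 of DMSO. A time course held 1 sample of entinostat at 1 µM and 1 of DMSO at each of 1, 6 and 24 h.

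The screen compounds fall into groups by the target that the labels give. The acetylation axis comprised 7 compounds: the histone deacetylase (HDAC) inhibitors LAQ824 (no isoform named), WT161 (HDAC6), MC1568 (HDAC4 and HDAC5), Merck60 (HDAC1 and HDAC2) and OJI-1 (HDAC8), the bromodomain inhibitor bromosporin, and SGC-CBP30, which is aimed at the bromodomain of CREBBP and EP300. The methylation axis comprised 11 compounds aimed at enzymes that add or remove histone methyl groups, or at a reader of them: Cpd50, GSKJ4, GSKLSD1, LSD-519, LSD-690, EZ-005, UNC1999, SGC0946, UNC0638, PFI-2 and UNC-1215. PFI-3 (SMARCA4) and trametinib (MEK1 and MEK2) were assigned to neither axis. The paper names BRG, which SMARCA4 encodes, among remodelers with domains that read acetylation. PFI-3 could therefore also be counted on the acetylation axis, and the axis comparison was not run that way. Doses were 10 and 1 µM, except for LAQ824, Cpd50 and GSKJ4, which were used at 5 and 0.5 µM. The labels name no genetic modification. The screen samples are titled RH41 but labelled as cell line RH4, while the N1302 and entinostat samples are titled and labelled RH4. Treated samples are therefore compared only with DMSO of their own experiment.

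Histone acetyltransferases move acetyl groups from acetyl-CoA to lysines of histones and other proteins, HDACs remove them, and bromodomains read them. CREBBP (CBP) and EP300 (p300) are closely related coactivators that acetylate enhancer chromatin. KAT2A (GCN5) and its relative KAT2B (PCAF) are the enzymes of the SAGA and ATAC coactivator complexes. KAT5 (TIP60), KAT6A (MOZ), KAT6B (MORF), KAT7 (HBO1) and KAT8 (MOF) form the MYST family, each the catalytic subunit of its own complexes. In muscle cells, CREBBP, EP300 and KAT2B are known as partners of MYOD1, the factor that drives the myogenic programme.

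Expression is given in TPM, a measure of transcript abundance scaled for transcript length and library size, and differences are on the log2(TPM + 1) scale, which understates the change of low genes. Depth worked out from the TPM steps ranged from 5737939 to 41415071 reads per sample (median 15055060), and between 47 and 12794 reads lay behind each acetyltransferase value. Of 9 FP-RMS and myogenic markers, 8 were at 1 TPM or above in every DMSO sample; the exception was CDH3, at 0.162 to 0.407 TPM. The summed level of the 9 ranged from 1575 to 2799 TPM over the DMSO samples. The 6 markers of blood, endothelium, epithelium, liver and glia summed to 0.452 to 0.953 TPM in DMSO, and PTPRC was at 0 in all 4 DMSO samples of the screen. The 2 DMSO libraries of each concentration differed from each other in the same way at both concentrations, to within sampling noise once flow cell was allowed for (1.02 times counting noise over 10378 genes), and were counted as 1 sample. Of the 40 treated screen samples, 32 (16 compounds) were sequenced on 2 flow cells with no DMSO library, 28 of them (14 compounds) on 1 and 4 (GSKLSD1 and UNC-1215) on the other.

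In screen DMSO the 9 genes spanned from 7.40 to 123 TPM. Values are given for the 4 libraries, 0.2% DMSO first, with the mean and SD over the 2 concentrations. KAT2A was highest, at 129, 126, 119.9 and 117 TPM (123 ± 6.60, SD, n = 2). CREBBP followed at 96.5, 96.0, 99.3 and 96.3 TPM (97.0 ± 1.08, SD, n = 2). KAT7 was at 67.3, 68.2, 66.6 and 64.5 TPM (66.7 ± 1.58, SD, n = 2). KAT2A exceeded its relative KAT2B, the lowest of the 9, in every library.

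KAT6A was at 58.1, 58.2, 58.8 and 59.8 TPM (58.7 ± 0.795, SD, n = 2), and EP300 at 60.2, 59.0, 57.0 and 57.5 TPM (58.4 ± 1.65, SD, n = 2). Their libraries overlapped, and no other neighbours in the order of the means did. KAT8 was at 52.5, 50.9, 46.6 and 53.1 TPM (50.8 ± 1.32, SD, n = 2). KAT5 was at 19.8, 18.8, 24.2 and 22.5 TPM (21.3 ± 2.82, SD, n = 2), and KAT6B at 13.2, 13.2, 13.3 and 13.7 TPM (13.3 ± 0.188, SD, n = 2). KAT2B was at 8.08, 7.36, 7.55 and 6.61 TPM (7.40 ± 0.452, SD, n = 2). The fewest reads behind any of these values were 223, for KAT2B. In the controls of the time course KAT2A was at 56.8 to 70.5 TPM, below CREBBP at 74.1 to 78.1 TPM. The N1302 control had 24.7 TPM of KAT2A and 44.5 TPM of CREBBP.

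The promoters of 5 of the genes are shown because CREBBP, EP300, KAT5 and KAT7 were called lower under the HDAC inhibitors LAQ824 and WT161, and KAT2B was not. Each line gives the 250 bases before the outermost annotated start (RefSeq, GRCh38.p14), 5′ to 3′ along the gene. Capitals mark TGACG or its reverse complement, the half-site of the cAMP response element that CREB, the factor CREBBP was named for, binds.
CREBBP, chr16:3880714-3880963, minus strand: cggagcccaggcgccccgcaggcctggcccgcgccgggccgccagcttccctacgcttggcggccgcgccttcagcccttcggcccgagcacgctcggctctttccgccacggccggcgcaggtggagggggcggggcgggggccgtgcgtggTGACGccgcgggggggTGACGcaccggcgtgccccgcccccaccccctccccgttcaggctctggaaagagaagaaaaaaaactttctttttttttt
EP300, chr22:41092342-41092591, plus strand: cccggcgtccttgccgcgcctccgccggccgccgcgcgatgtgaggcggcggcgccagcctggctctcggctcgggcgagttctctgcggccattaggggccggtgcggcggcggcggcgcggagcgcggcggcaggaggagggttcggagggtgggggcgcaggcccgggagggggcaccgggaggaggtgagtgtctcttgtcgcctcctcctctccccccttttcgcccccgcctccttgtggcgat
KAT5, chr11:65712002-65712251, plus strand: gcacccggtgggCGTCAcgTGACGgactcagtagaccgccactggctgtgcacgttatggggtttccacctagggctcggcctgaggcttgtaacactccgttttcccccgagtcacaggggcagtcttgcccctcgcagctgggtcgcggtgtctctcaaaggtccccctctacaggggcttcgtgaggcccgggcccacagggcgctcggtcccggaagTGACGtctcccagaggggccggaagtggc
KAT7, chr17:49788431-49788680, plus strand: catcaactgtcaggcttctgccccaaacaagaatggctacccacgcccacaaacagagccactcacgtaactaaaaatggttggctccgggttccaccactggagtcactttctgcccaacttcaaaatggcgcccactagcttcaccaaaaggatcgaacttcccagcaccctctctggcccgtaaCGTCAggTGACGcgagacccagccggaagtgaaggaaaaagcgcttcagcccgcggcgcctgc
KAT2B, chr3:20040196-20040445, plus strand: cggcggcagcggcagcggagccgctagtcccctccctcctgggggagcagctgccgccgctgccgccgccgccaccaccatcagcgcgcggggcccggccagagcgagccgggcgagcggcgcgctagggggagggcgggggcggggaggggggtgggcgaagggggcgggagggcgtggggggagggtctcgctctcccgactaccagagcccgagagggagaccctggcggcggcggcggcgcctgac
Windows were found for 7 of the 9 genes, 10 windows in all. TGACG was found on either strand in 4 of the 10 windows, 1 each of CREBBP, KAT2A, KAT5 and KAT7, against 21.2% of 35114 promoter windows of the same length. The KAT5 window held 3 matches, the CREBBP and KAT7 windows 2 each, and the EP300 and KAT2B windows none. The GC box GGGCGG was found in 5 of the 10 windows against 42.6% of all windows, among them those of CREBBP and KAT2B. The E-box CAGCTG, the sequence bound by MYOD1 and MYOG, was found in the KAT2B and KAT5 windows against 14.0% of all windows. The EP300 window held none of the 3 motifs.

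In build hg19 CREBBP spans 3775056 to 3930121 on the minus strand of chromosome 16, and KAT8 spans 31128985 to 31142714 on the plus strand of the same chromosome. EP300 spans 41488614 to 41576081 of chromosome 22 (plus), KAT2B 20081524 to 20195896 of chromosome 3 (plus), and KAT6B 76586171 to 76792380 of chromosome 10 (plus). KAT2A spans 40265129 to 40273382 (minus) and KAT7 47865981 to 47906458 (plus) of chromosome 17. KAT5 spans 65479473 to 65487077 of chromosome 11 (plus), and KAT6A 41786997 to 41909544 of chromosome 8 (minus). All are annotated as protein coding. KAT5 shares 1934 bases with RNASEH2C, and the span listed for MIR3654 (303 TPM in screen DMSO) covers it. Whether the counting used strand is not given in the sources used here, so KAT5 values may include reads of these neighbours.

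Acetylation-axis compounds were set against DMSO to ask whether blocking the removal or the reading of acetyl marks altered the genes of the enzymes that write them. Under limma, 23 of 63 gene and compound combinations were called at an adjusted p below 0.05, 20 of them lower and 3 higher than DMSO. Over all genes, 21.0% of combinations with the same 7 compounds were called. The calls came from LAQ824, WT161, bromosporin and MC1568. The error in these tests is the difference between the doses of a compound, pooled over the screen. Nothing in the labels says that the samples came from separate cultures, so p-values measure the spread between these samples, which may be technical. In bulk RNA, fewer cells of a type and less RNA per cell cannot be told apart.

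**Figure D1:**
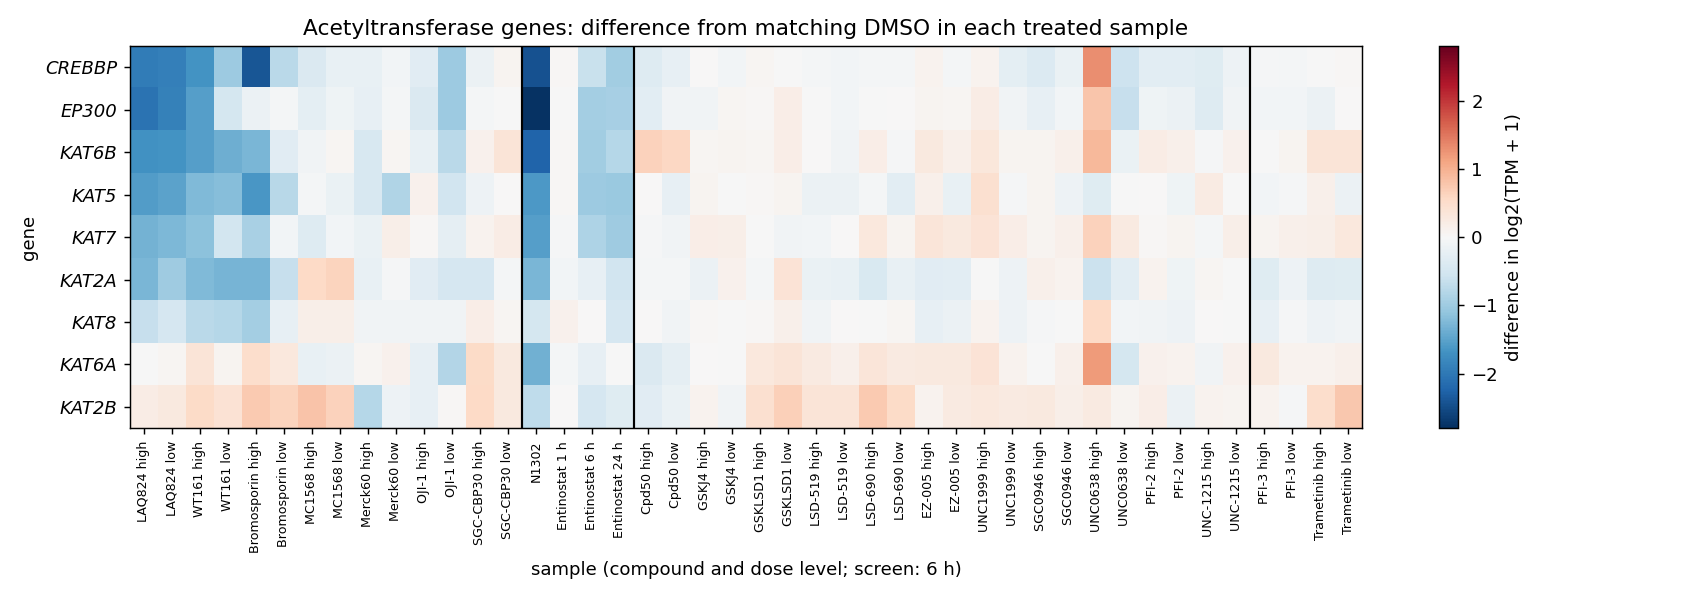
Difference in log2(TPM + 1) between each treated sample (columns; 6 h unless named) and its matching DMSO for the 9 genes (rows); blue is lower and red higher, and vertical lines separate acetylation-axis screen compounds, N1302 and entinostat, methylation-axis compounds, and PFI-3 and trametinib. CREBBP is at -1.97 and -1.90 under LAQ824 and at -0.17 and 0.07 under SGC-CBP30, and UNC0638 at high dose stands out among the methylation-axis columns.

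LAQ824 lowered 7 of the 9 genes and raised none, against 24.6% of all genes called lower and 28.4% called higher. CREBBP was at 23.9 TPM at 5 µM and 25.4 TPM at 0.5 µM, and EP300 at 13.5 and 14.7 TPM. Every DMSO library lay above these samples, and the doses lay close together. The fitted change was -1.94 ± 0.396 for CREBBP (SE; limma adjusted p = 0.000237) and -1.98 ± 0.289 for EP300 (adjusted p = 4.51e-06). The median of the 9 genes was -1.29, against 0.06 over all genes tested.

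Among the MYST genes, KAT6B was at 3.37 and 3.53 TPM under LAQ824 (-1.69 ± 0.261, adjusted p = 9.1e-06), and KAT5 at 5.90 and 7.58 TPM (-1.53 ± 0.242, adjusted p = 1.19e-05). KAT7 was at 26.5 and 26.8 TPM (-1.29 ± 0.193, adjusted p = 6.15e-06). KAT8 changed least of the 7, to 32.9 and 35.4 TPM (-0.56 ± 0.166, adjusted p = 0.00666), and was not called without the 5 µM library (adjusted p = 0.0511; 0.000358 to 0.0511 over the alternatives). KAT6A, the close relative of KAT6B, was at 58.1 and 61.3 TPM, the first just below its DMSO range and the second just above it. Its fitted difference was 0.02 (95% confidence interval -0.54 to 0.58). KAT2A fell to 52.3 and 59.1 TPM (-1.13 ± 0.154, adjusted p = 1.84e-06). KAT2B, at 9.005 and 8.74 TPM, differed by 0.24 (interval -0.16 to 0.63) and was not called. LAQ824 shared its flow cell with a DMSO library of each concentration. Against those libraries alone the same 7 genes were called lower, where 25.5% of all genes were, with CREBBP at -1.92 and EP300 at -1.97.

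WT161 lowered the same 7 genes, against 14.3% of all genes called lower. CREBBP was at 29.6 TPM at 10 µM and 47.7 TPM at 1 µM (-1.34 ± 0.396, limma adjusted p = 0.0114). EP300 was at 19.8 and 40.5 TPM (-1.02 ± 0.289, adjusted p = 0.00895), and KAT7 at 29.9 and 45.7 TPM (-0.83 ± 0.193, adjusted p = 0.00196). In these 3 genes the high dose lay further from DMSO than the low dose. KAT6B was at 3.91 and 4.57 TPM (-1.45 ± 0.261, adjusted p = 0.000196), KAT5 at 7.59 and 9.57 TPM (-1.22 ± 0.242, adjusted p = 0.000492), and KAT2A at 53.6 and 47.3 TPM (-1.27 ± 0.154, adjusted p = 2.52e-06). In KAT2A and KAT8 (30.2 and 28.2 TPM; -0.78 ± 0.166, adjusted p = 0.00102) the 1 µM sample was the lower of the pair. KAT6A was at 74.6 and 63.0 TPM and KAT2B at 11.7 and 9.72 TPM, above every DMSO library, without a call (KAT2B 0.48 ± 0.191, adjusted p = 0.0576, with 0.0179 to 0.364 over the alternatives).

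Without the 10 µM library of WT161, 4 of the 9 genes were called lower, where 5.3% of all genes were, and CREBBP, EP300 and KAT7 were not. WT161 was on the flow cell of 14 compounds and no DMSO. The 9 methylation-axis or neither-axis compounds of that flow cell had CREBBP changes from -0.30 to 0.36 and EP300 changes from -0.15 to 0.07. All 7 genes called under WT161 lay below the range of those compounds, and KAT2B and KAT6A lay within it.

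**Figure D2:**
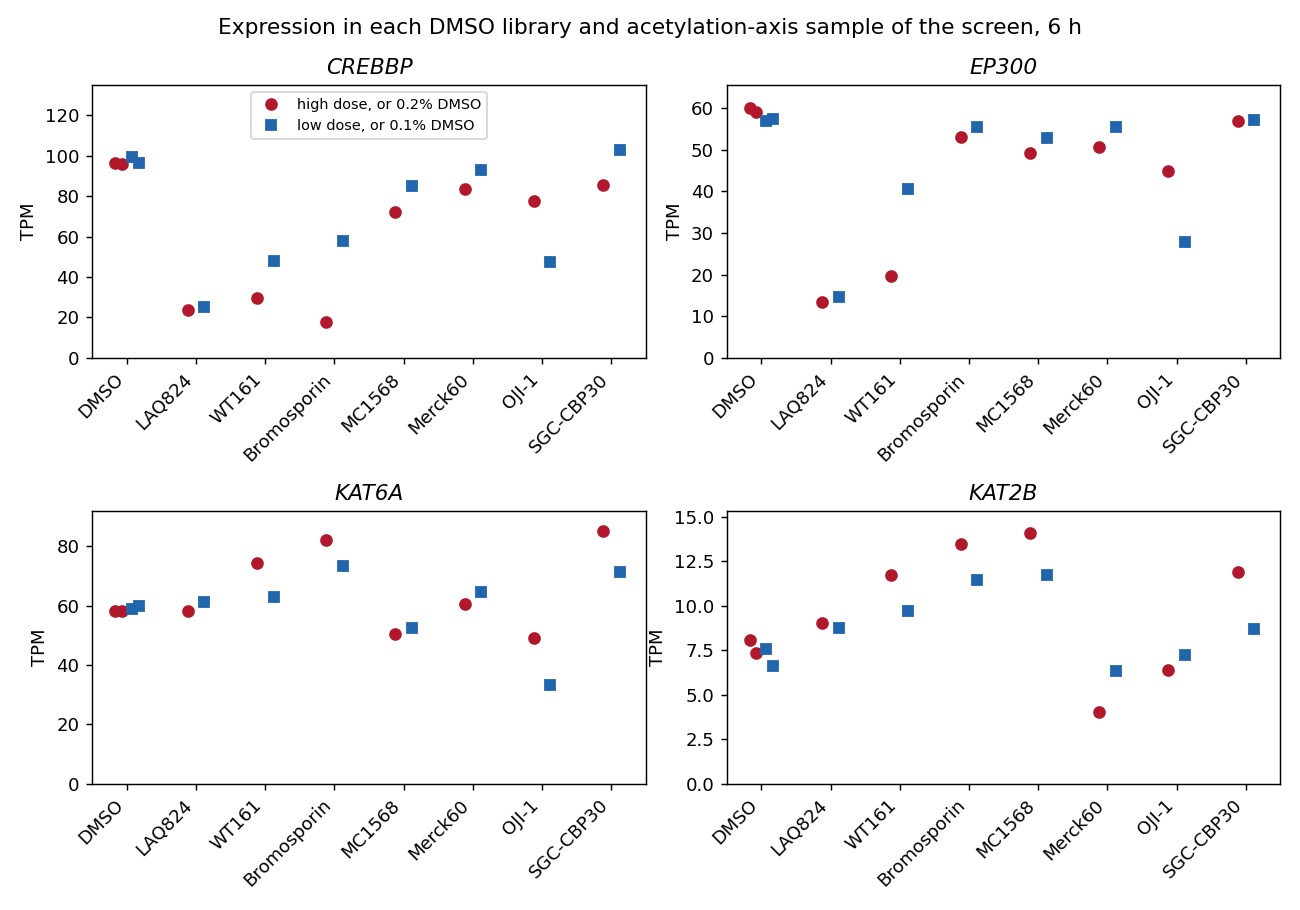
TPM of CREBBP, EP300, KAT6A and KAT2B (panels; vertical axes start at 0) in each DMSO library and each acetylation-axis sample of the screen at 6 h; circles are high dose or 0.2% DMSO and squares low dose or 0.1% DMSO. CREBBP is between 96.0 and 99.3 TPM in DMSO, at 17.6 TPM under 10 µM bromosporin and at 85.3 and 103 TPM under SGC-CBP30, while EP300 is at 53.1 and 55.5 TPM under bromosporin.

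Bromosporin, which binds bromodomains broadly, lowered 6 genes and raised 1, against 23.4% of all genes called lower and 12.4% called higher. CREBBP was at 17.6 TPM at 10 µM, the lowest CREBBP level of the screen, and at 57.9 TPM at 1 µM (-1.57 ± 0.396, limma adjusted p = 0.00377). EP300 was at 53.1 and 55.5 TPM, just under its DMSO range, with a difference of -0.10 (95% confidence interval -0.70 to 0.49). The difference between these related genes under bromosporin was not tested.

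KAT5 was at 5.59 and 13.1 TPM under bromosporin (-1.20 ± 0.242, adjusted p = 0.000651) and KAT2A at 51.2 and 75.3 TPM (-0.97 ± 0.154, adjusted p = 0.00011). KAT6B was at 4.86 and 10.6 TPM (-0.80 ± 0.261, adjusted p = 0.0188), and KAT8 at 26.5 and 42.2 TPM (-0.59 ± 0.166, adjusted p = 0.00823). In these genes the 10 µM sample was lower than the 1 µM sample. KAT7, at 35.7 and 62.1 TPM (-0.49 ± 0.193, adjusted p = 0.0493), stood at the threshold, and its adjusted p ran from 0.000621 without the 1 µM library to 0.83 without the 10 µM library over the alternatives. KAT2B was the gene that rose, to 13.5 and 11.5 TPM (0.68 ± 0.191, adjusted p = 0.0077). KAT6A was at 82.1 and 73.5 TPM, above every DMSO library (0.40 ± 0.271, adjusted p = 0.265).

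Without the 10 µM bromosporin library only KAT2A of the 9 genes was called, where 6.64% of all genes were. The 9 methylation-axis or neither-axis compounds of its flow cell had KAT6A changes from 0.06 to 0.35 and KAT2B changes from 0.02 to 0.63. Bromosporin lay above the range of these 9 compounds in both genes and below it in the 6 genes called lower. Acetylation-axis compounds of the same flow cell are not in that range: SGC-CBP30 had a KAT6A change of 0.40, and WT161 had lower KAT6B (-1.45) than bromosporin. With UNC0638 left out of the fit, chosen after seeing the data, KAT6A was called under bromosporin (adjusted p = 0.0186; 0.00497 to 0.646 over the alternatives). Median-ratio scaling shifted the bromosporin scale upward by 0.12.

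MC1568 lowered none of the 9 genes and raised 2, against 2.92% of all genes called lower and 19.6% called higher. KAT2A was at 188 TPM at 10 µM and 182 TPM at 1 µM (0.59 ± 0.154, limma adjusted p = 0.00812), and no other sample of the screen reached these levels. KAT2B was at 14.1 and 11.7 TPM (0.73 ± 0.191, adjusted p = 0.00824). KAT2A therefore rose under MC1568 and fell under LAQ824, WT161 and bromosporin. CREBBP was at 72.0 and 85.2 TPM, below DMSO at both doses without a call (-0.31 ± 0.396). Without the 10 µM MC1568 library 0 of the 9 were called, where 4.77% of all genes were.

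Under Merck60 and OJI-1 none of the 9 genes was called, where 0.116% and 0.171% of all genes were called in either direction. At an unadjusted p below 0.05 there were 2 genes for each compound, against 7.01% of all genes for Merck60 and 7.69% for OJI-1. For Merck60 these were KAT5, at 13.9 and 12.6 TPM (-0.64 ± 0.242, limma adjusted p = 0.548), and KAT2B, at 4.02 and 6.34 TPM (-0.47 ± 0.191, adjusted p = 0.598). KAT2B at 10 µM Merck60 was the lowest in the screen. Against the other 13 compounds of its flow cell KAT2B was called (-0.77, adjusted p = 0.0129), where 0.116% of all genes were called lower. That reference holds treated samples, and its 9 methylation-axis or neither-axis compounds had KAT2B changes from DMSO of 0.02 to 0.63. For OJI-1 they were EP300 (-0.71 ± 0.289, adjusted p = 0.483) and KAT2A (-0.38 ± 0.154, adjusted p = 0.462). EP300 was at 44.9 TPM at 10 µM OJI-1 and at 27.8 TPM at 1 µM, and CREBBP at 77.6 and 47.6 TPM, so that the low dose lay further from DMSO. Against the other 13 compounds of the flow cell KAT6A was called lower under OJI-1 (-0.75, adjusted p = 0.0262), where 3.67% of all genes were. The 9 compounds had KAT6A changes from DMSO of 0.06 to 0.35, and against DMSO the OJI-1 change was -0.53 without a call.

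The OJI-1 library at 1 µM stood apart in a measure not specific to these genes. Genes with transcripts of at least 8 kb (931 genes) had a median change of -0.36 in it, against 0.00 for genes of 1 to 3 kb (2775 genes). In the other screen samples, UNC0638 left aside, the difference of long minus short genes ran from -0.18 to 0.27. CREBBP, EP300, KAT6A, KAT6B and KAT7 have transcripts of at least 8 kb. The part of transcript length in the OJI-1 values was not tested.

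SGC-CBP30 blocks the bromodomain of CREBBP and EP300 and not their catalytic domain. It left the levels of both target genes without a call: CREBBP was at 85.3 TPM at 10 µM and 103 TPM at 1 µM, and EP300 at 57.0 and 57.1 TPM. The fitted differences were -0.05 for CREBBP (95% confidence interval -0.87 to 0.77) and -0.03 for EP300 (interval -0.63 to 0.56). None of the 9 genes was called, where 2.68% of all genes were called lower and 0.727% higher. KAT2B alone had an unadjusted p below 0.05, against 16.9% of all genes, at 11.9 and 8.69 TPM (0.41 ± 0.191, limma adjusted p = 0.263).

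KAT6A was at 85.1 and 71.5 TPM under SGC-CBP30 (0.40 ± 0.271, adjusted p = 0.494). Both values exceeded every DMSO library, and the 10 µM value was the highest of the acetylation axis. The 9 methylation-axis or neither-axis compounds of the flow cell had KAT6A changes from 0.06 to 0.35, and bromosporin, also on it, had 0.40. With UNC0638 and OJI-1 left out of the fit, an alternative chosen after seeing the data, the standard error was 0.107 and KAT6A was called (adjusted p = 0.0235), where 2.54% of all genes were called higher. Against the other 13 compounds of its flow cell the difference was 0.25 (adjusted p = 0.492). KAT2A was at 91.2 and 114 TPM, below every DMSO library, with a fitted difference of -0.26 (interval -0.58 to 0.05).

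**Figure D3:**
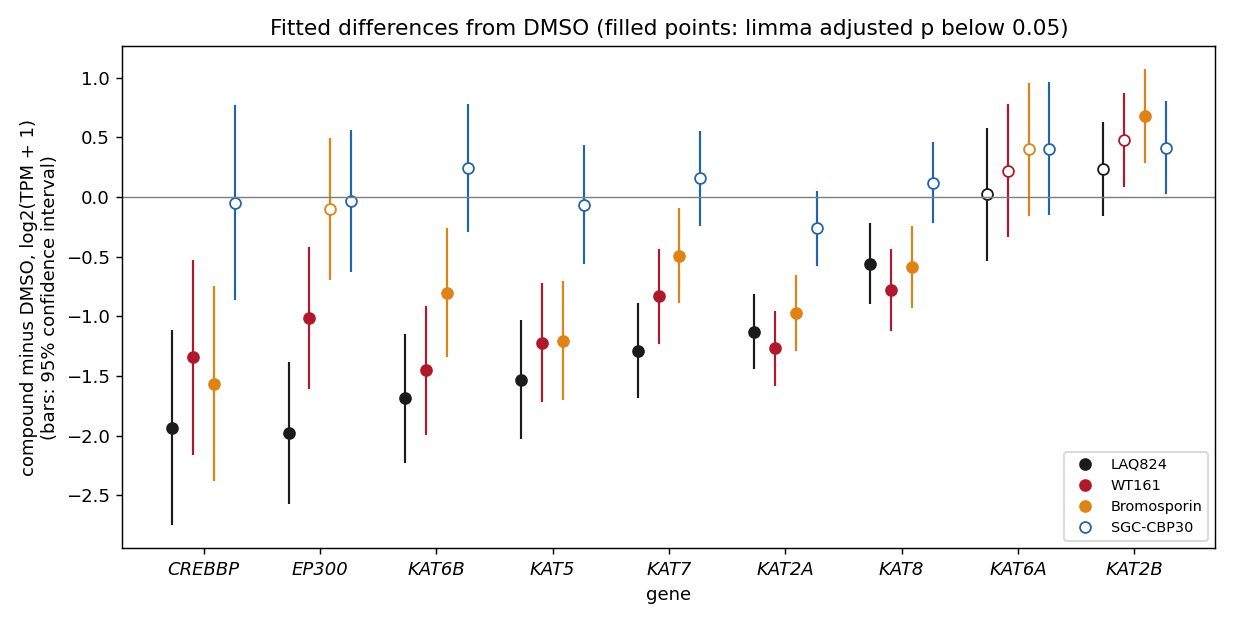
Fitted difference from DMSO in log2(TPM + 1) (vertical axis) for each gene (horizontal axis) under 4 acetylation-axis compounds; bars are 95% confidence intervals and filled points have a limma adjusted p below 0.05. SGC-CBP30 lies between -0.26 and 0.41 with no filled point, whereas CREBBP lies at -1.94 under LAQ824, -1.34 under WT161 and -1.57 under bromosporin.

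SGC-CBP30 was set directly against the 5 acetylation-axis compounds used at the same doses and time, giving 45 tests, of which 16 were called with p adjusted over all genes. Against WT161, 7 genes were higher under SGC-CBP30, where 11.7% of all genes were called higher. The differences were 1.29 ± 0.396 for CREBBP (limma adjusted p = 0.0183), 0.98 ± 0.289 for EP300 (adjusted p = 0.0141) and 1.70 ± 0.261 for KAT6B (adjusted p = 4.56e-05). KAT2A, KAT5, KAT7 and KAT8 were also higher, by 1.01, 1.16, 0.99 and 0.90. KAT2B (-0.06, interval -0.46 to 0.33) and KAT6A (0.18, interval -0.37 to 0.74) were not called.

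Against bromosporin, 6 genes were higher under SGC-CBP30, where 17.6% of all genes were called higher. CREBBP differed by 1.52 ± 0.396 (adjusted p = 0.00863) and KAT5 by 1.14 ± 0.242 (adjusted p = 0.00255). EP300 differed by 0.07 (interval -0.52 to 0.66), KAT6A by 0.01 (interval -0.55 to 0.56) and KAT2B by -0.27 (interval -0.66 to 0.13). KAT2A, KAT6B, KAT7 and KAT8 were higher by 0.71, 1.04, 0.65 and 0.71.

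Against MC1568, KAT2A was lower under SGC-CBP30 (-0.85 ± 0.154, adjusted p = 0.000186), where 24.6% of all genes were called lower. Against Merck60, KAT2B was higher (0.88 ± 0.191, adjusted p = 0.00488), where 2.21% of all genes were called higher. Against OJI-1, KAT6A was higher (0.93 ± 0.271, adjusted p = 0.0393), where 4.18% of all genes were called higher. The call against OJI-1 was lost without the 1 µM OJI-1 library (adjusted p = 0.411), without the 10 µM SGC-CBP30 library (0.472) and under median-ratio scaling (0.0897). The call against Merck60 was lost without the 10 µM Merck60 library (adjusted p = 0.201) or the 10 µM SGC-CBP30 library (0.222). Against WT161, CREBBP and EP300 were not called without the 10 µM WT161 library (adjusted p = 0.227 and 0.38). Without the 1 µM SGC-CBP30 library 10 of the 45 tests were called, without the 10 µM SGC-CBP30 library 13, and without the 10 µM bromosporin library 12. All calls against bromosporin were lost without its 10 µM library. The differences were then 0.68 for CREBBP, 0.43 for KAT2A, 0.59 for KAT5, 0.55 for KAT6B, 0.26 for KAT7 and 0.38 for KAT8. The bromosporin calls of CREBBP, KAT2A, KAT5, KAT6B and KAT7 were also lost without the 1 µM SGC-CBP30 library. Their differences were then 1.38, 0.55, 0.93, 0.91 and 0.61. LAQ824 was used at other doses and is not compared here.

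None of the 9 genes was called under any methylation-axis compound (0 of 99 combinations; 6 at an unadjusted p below 0.05). Over all genes 2.2% of those combinations were called and 10.0% had an unadjusted p below 0.05. Cpd50 gave the highest KAT6B among them apart from UNC0638, at 21.1 and 20.6 TPM, above every DMSO library at both doses (0.61 ± 0.261, adjusted p = 0.216 with limma). At both doses KAT6B and KAT7 lay above every DMSO library under 7 of the 11 compounds each, KAT6A under 6 and EP300 under 1. KAT2B did so under 5: GSKLSD1, LSD-519 and LSD-690, which the labels aim at LSD1 (9.31 to 13.5 TPM), EZ-005 (8.36 and 8.61 TPM) and UNC1999 (9.69 and 8.60 TPM). Below every DMSO library lay CREBBP under 6 compounds, EP300 and KAT2A under 4 each, and KAT2B, KAT5, KAT6A and KAT8 under 1 each. The share of all genes that did so was not counted. Of the 11 compounds, Cpd50 and GSKJ4 alone shared a flow cell with DMSO. PFI-3 and trametinib had 0 calls in 18 combinations (2 at an unadjusted p below 0.05), against 1.37% of combinations called over all genes and 7.15% at an unadjusted p below 0.05. Under trametinib, which blocks the kinases MEK1 and MEK2, KAT2B was at 11.3 and 12.5 TPM and KAT2A at 99.7 and 93.2 TPM.

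UNC0638, aimed at the methyltransferase labelled KMT1C, had doses on opposite sides of DMSO in 5 of the 9 genes, CREBBP, EP300, KAT6A, KAT6B and KAT8, and on the same side in KAT2A, KAT2B, KAT5 and KAT7. At 10 µM CREBBP was at 239 TPM, EP300 at 102 TPM and KAT6A at 133.9 TPM, each the highest of the screen. At 1 µM these 3 genes were at 65.1, 36.5 and 41.9 TPM, below every DMSO library. Relative to genes with short transcripts, genes with long transcripts moved the same way in these libraries. At 10 µM genes of at least 8 kb had a median change of 0.07 and genes of 1 to 3 kb of -0.34. At 1 µM the medians were -0.26 and 0.01. The part of transcript length in the values was not tested. When only the 10 µM library stood for UNC0638, 7 of the 9 genes were called, 6 higher and 1 lower, where 14.9% of all genes were called higher and 26.4% lower. With both libraries 0 of the 9 and 12.1% of all genes were called. Without UNC0638 in the fit the standard error of KAT6A was 0.133 in place of 0.271, and 25 acetylation-axis combinations were called in place of 23.

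Axis against axis, with compounds as units (7 against 11), 0 of the 9 genes and 0.0% of all genes were called. At an unadjusted p below 0.05 there were 7 of the 9 genes, against 30.7% of all genes. The lowest limma adjusted p was 0.0568, shared by CREBBP (acetylation minus methylation -0.77 ± 0.217), KAT6B (-0.80 ± 0.216) and KAT5 (-0.68 ± 0.180). KAT2B (0.08, interval -0.26 to 0.42) and KAT6A (-0.08, interval -0.34 to 0.18) had the smallest differences. With MC1568 left out 5 genes were called, all lower, where 10.4% of all genes were called lower. With Merck60 left out 5 were called lower, against 8.67%, and with OJI-1 left out 4, against 8.02%. Against DMSO, 0 of the 9 genes were called lower under MC1568, Merck60 or OJI-1. Leaving out such a compound favours a difference between axes, so these calls are not separate evidence for one. Leaving out each compound in turn gave 0 to 5 calls. Among the compounds of either axis on the flow cell that held 14 compounds, 0 of the 9 genes and 0.0% of all genes were called.

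A 10-fold step in dose, tested over compounds, gave 0 calls on either axis among the 9 genes and 0.0% over all genes. On the acetylation axis KAT7 had the smallest limma adjusted p (high minus low dose -0.24 ± 0.0974, adjusted p = 0.147) and was alone at an unadjusted p below 0.05, against 23.3% of all genes. With OJI-1 left out KAT7 was called, where 5.82% of all genes were. On the methylation axis KAT2B was alone at an unadjusted p below 0.05 (0.17 ± 0.0792, adjusted p = 0.505), against 9.88% of all genes. DMSO at 0.2% and 0.1% gave 0 calls, with KAT5 (-0.26 ± 0.0577, adjusted p = 0.511) and KAT2A (0.11 ± 0.0247, adjusted p = 0.511) at an unadjusted p below 0.05, against 9.46% of all genes.

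N1302, an HDAC inhibitor, was given to RH4-titled cells at 1 µM for 6 h. With 1 sample on each side there is no test, and the spread between RH4-titled 6 h DMSO samples is given below with entinostat. All 9 genes were below DMSO and 7 were past 2-fold, where 19.3% of all genes were past 2-fold lower and 11.6% higher. EP300 went from 34.6 TPM in DMSO to 4.20 TPM, a difference of -2.77, and CREBBP from 44.5 to 7.45 TPM (-2.43). KAT6B (7.43 to 0.786 TPM, -2.24), KAT5 (15.0 to 4.21 TPM, -1.62) and KAT7 (50.1 to 16.7 TPM, -1.53) were also past 2-fold. So were KAT6A (46.2 to 17.5 TPM, -1.35) and KAT2A (24.7 to 9.60 TPM, -1.28). KAT2B (12.4 to 7.16 TPM, -0.72) and KAT8 (21.6 to 15.1 TPM, -0.48) were not.

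Transcript length moved with the N1302 values. Genes of at least 8 kb had a median difference of -1.18, genes of 3 to 8 kb (5082 genes) of -0.49, and genes of 1 to 3 kb of 0.02. Relative to the median of their own length class, EP300 was at -1.60, CREBBP at -1.25 and KAT6B at -1.06, while KAT7 was at -0.36 and KAT6A at -0.17. KAT5, with a transcript of 2237 bases, was at -1.64 relative to its class. The part of transcript length in these differences was not tested. Median-ratio scaling shifted the N1302 scale upward by 0.33.

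Entinostat, an HDAC1, HDAC2 and HDAC3 inhibitor, was followed over time with 1 sample a time point, again without a test. At 1 h the differences from DMSO ran from -0.08 (KAT2A) to 0.12 (KAT8), none past 2-fold, where 0.581% of all genes were past 2-fold lower. At 6 h KAT5 was past 2-fold lower on the log2(TPM + 1) scale (9.03 against 19.2 TPM, -1.01), where 0.947% of all genes were. KAT6B (5.58 against 11.9 TPM, -0.97), EP300 (23.9 against 47.3 TPM, -0.95), KAT7 (27.1 against 50.4 TPM, -0.87) and CREBBP (48.8 against 75.6 TPM, -0.62) followed on this scale. As ratios of TPM, with no 1 added, KAT5 was 2.13-fold and KAT6B 2.13-fold lower. KAT8 was at 47.7 against 47.4 TPM. The median of the 9 was -0.62, against 0.02 over all genes, and genes of at least 8 kb had a median of -0.12. The RH4-titled 6 h DMSO samples of the N1302 experiment and the time course give a measure of spread. Their median difference over the 9 genes corresponded to an SD of 0.31 (n = 2). CREBBP was at 44.5 and 75.6 TPM in them, and KAT7 at 50.1 and 50.4 TPM. That spread also holds any difference between the experiments.

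At 24 h KAT5 was again past 2-fold lower (9.22 against 20.1 TPM, -1.04), where 6.06% of all genes were past 2-fold lower and 16.4% higher. KAT7 (25.2 against 51.0 TPM, -0.99), CREBBP (39.6 against 78.1 TPM, -0.96), EP300 (26.8 against 52.1 TPM, -0.94) and KAT6B (7.07 against 13.1 TPM, -0.80) were near that limit on the same scale. As ratios of TPM, KAT5 was 2.18-fold and KAT7 2.02-fold lower, while CREBBP was 1.97-fold, EP300 1.95-fold and KAT6B 1.85-fold lower. KAT2A and KAT8, at -0.22 and 0.01 at 6 h, were at -0.53 and -0.48. KAT6A was at 58.7 against 59.4 TPM (-0.02), and KAT2B at 8.34 against 10.8 TPM (-0.34). Genes of at least 8 kb had a median of 0.00. The 5 genes lowest at 6 h were also the 5 lowest at 24 h.

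**Figure D4:**
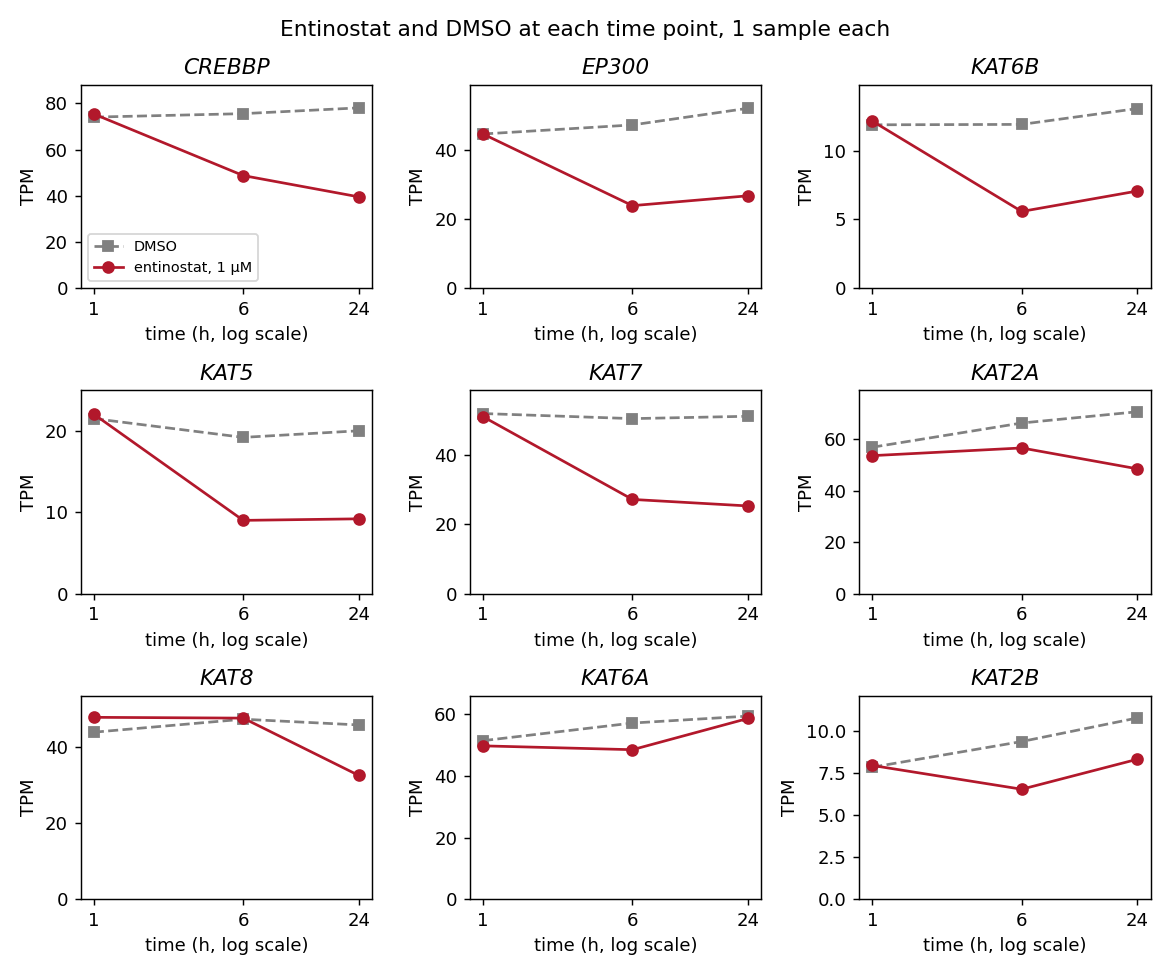
TPM of each gene (panels; vertical axes start at 0) at 1, 6 and 24 h (log scale) in entinostat at 1 µM (red circles) and DMSO (grey squares), 1 sample each, so no error can be drawn. CREBBP is at 75.4 TPM under entinostat at 1 h, 48.8 TPM at 6 h and 39.6 TPM at 24 h, whereas KAT6A is at 49.8, 48.5 and 58.7 TPM.

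Over the 20 screen compounds, the 7 genes called lower under LAQ824 and WT161 were set beside KAT2B and KAT6A. Among CREBBP, EP300, KAT2A, KAT5, KAT6B, KAT7 and KAT8 the 21 pairs had Pearson's r from 0.62 to 0.93, highest for CREBBP and KAT7. KAT2B and KAT6A correlated with these 7 at -0.26 to 0.32, and with each other at 0.46. The points share the DMSO reference, and few strong compounds spread them. The 7 genes were grouped by calls from these same values, so r is given as a description. Among 11121 genes with a mean of at least 5 TPM, the pattern of CREBBP was most like those of NCOA6 (r = 0.97), a nuclear receptor coactivator, and DHX15 (r = 0.97), a splicing helicase. EP300 was most like RSF1 (r = 0.98), a chromatin remodelling subunit, and ZNF592 (r = 0.97). KAT7 was most like EPC2 (r = 0.97), a subunit of the TIP60 complex, and HMGXB4 (r = 0.97). KAT6B was most like TET2 (r = 0.96) and KDM5C (r = 0.95), a DNA and a histone demethylating enzyme.

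KAT2A was most like SYMPK and PCBP1-AS1 (r = 0.97 and 0.96), KAT5 most like NRDE2 and DNAJB12 (r = 0.98 and 0.98), and KAT8 most like TRAF3IP2-AS1 and UNK (r = 0.93 and 0.92). KAT6A was most like RC3H2 (r = 0.89), an RNA-binding ubiquitin ligase, and PANK3 (r = 0.88), an enzyme of coenzyme A synthesis. KAT2B was most like ZNF491 (r = 0.87) and ATP11B (r = 0.80).

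The other subunits of the acetyltransferase complexes, further acetyltransferases and the enzymes of acetyl-CoA supply came to 82 tested genes in 7 lists. Under LAQ824, 44 were called lower and 7 higher, against 24.6% and 28.4% of all genes. These shares also stand beside the LAQ824 counts of each list below. Under WT161 the counts were 33 lower, against 14.3% of all genes, and 6 higher, against 17.7%. With the shares of all genes in brackets, the counts lower and higher were, under bromosporin 30 (23.4%) and 11 (12.4%), under MC1568 3 (2.92%) and 5 (19.6%), and under SGC-CBP30 1 (2.68%) and 0 (0.727%). Past 2-fold they were, under N1302 32 (19.3%) and 3 (11.6%), and under entinostat at 24 h 10 (6.06%) and 3 (16.4%).

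Of the SAGA and ATAC subunits, the partners of KAT2A and KAT2B, 15 of 24 were lower under LAQ824 (median -0.52) and 1 higher. USP22, the deubiquitinase of SAGA, fell the most (-1.72 ± 0.146, adjusted p = 7.43e-09), and TAF12 rose (0.71 ± 0.147, adjusted p = 0.000266). Of the TIP60 subunits 8 of 16 were lower and 1 higher (median -0.40), with falls led by EPC2 (-2.28 ± 0.357, adjusted p = 1.05e-05) and a rise of the ATPase RUVBL2 (0.84 ± 0.133, adjusted p = 1.24e-05). Of the MOZ, MORF and HBO1 subunits 5 of 9 were lower and 0 higher (median -1.05), led by the scaffold BRPF3 (-2.76 ± 0.311, adjusted p = 1.62e-07). BRPF3 was also at -2.68 under N1302 and -1.21 under entinostat at 24 h.

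Of the MSL and NSL subunits, which hold KAT8, 6 of 9 were lower and 1 higher (median -0.74). HCFC1 fell the most (-2.60 ± 0.264, adjusted p = 4.64e-08) and was at -2.99 under N1302 and -2.04 under entinostat at 24 h, while PHF20 rose under LAQ824 (0.35 ± 0.114, adjusted p = 0.0119). Of the CBP/p300 partners 5 of 9 were lower and 1 higher (median -0.64). CRTC3, a CREB coactivator, fell the most (-2.08 ± 0.250, adjusted p = 3.87e-07), and NCOA3 rose (0.79 ± 0.256, adjusted p = 0.0116). Under entinostat at 24 h CITED2, which binds CREBBP and EP300, was at 2.97 and its relative CITED1 at -2.39. Under N1302 the partner with the largest fall was NCOA2 (-3.24).

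Of 10 other acetyltransferases 4 were lower under LAQ824 and 1 higher (median -0.28). The largest fall was that of CLOCK (-1.46 ± 0.274, adjusted p = 8.66e-05), and ESCO2, the acetyltransferase of cohesin, rose by 1.097 (adjusted p = 7.31e-07). Of the 5 acetyl-CoA supply genes 1 was lower and 2 higher (median 0.19). ACSS1, the mitochondrial acetyl-CoA synthetase, fell under LAQ824 (-1.13 ± 0.220, adjusted p = 0.000132) and under SGC-CBP30 (-1.29 ± 0.220, adjusted p = 0.00138). It was the 1 gene of the 82 called under SGC-CBP30. ACSS2, its nuclear and cytosolic relative, rose under LAQ824 (1.11 ± 0.252, adjusted p = 0.00068). Under entinostat at 24 h ACSS1 was at -1.57 and ACSS2 at 1.33, and under N1302 the citrate carrier SLC25A1 was at 1.43. Under N1302 the largest falls were ZZZ3 (-1.97) in SAGA and ATAC, EPC1 (-2.73) in TIP60, where RUVBL2 was at 1.06, and TAF1 (-2.68) among other acetyltransferases. TADA2B (-1.06) was the SAGA and ATAC gene past 2-fold under entinostat at 24 h.

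The FP-RMS and myogenic markers moved with several of these compounds. Under LAQ824, 7 of 9 were lower, where 24.6% of all genes were, led by TFAP2B (-4.10 ± 0.640, adjusted p = 1.04e-05). Under SGC-CBP30, which left the 9 acetyltransferase genes without a call, 3 of 9 were lower, where 2.68% of all genes were. DES fell the most of these (-0.98 ± 0.101, adjusted p = 4.96e-06). MYOG was at -3.56 under N1302 and TFAP2B at -2.74 under entinostat at 24 h. Of the markers of other cell types only ALB passed the filter, at 0.203 to 0.436 TPM in screen DMSO. In DMSO samples ALB reached at most 0.608 TPM and CDH3 0.407 TPM, so both passed only through treated samples. Their fitted differences under LAQ824, 1.54 for ALB and 1.34 for CDH3, are therefore given without a test. The part of these markers in the acetyltransferase values was not tested.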

How the data were processed

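Poly-A RNA libraries were sequenced paired-end. The authors report mapping reads to hg19 (STAR) and quantifying genes (RSEM). They deposited TPM for each gene and sample, scaled for transcript length and library size, with replicates not pooled. The submitters' processing notes also name edgeR, and which program made the deposited values is not settled here. TPM values were whole multiples of a step per gene (100.0% of 23645 genes with a value above 0, tolerance 0.02), which gave read numbers. These served for depth and for the check of the DMSO libraries against counting noise, while the limma tests used TPM. Simulation returned 99.9% of counts.

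Samples were grouped by labels. Genes at 1 TPM or above in 2 or more samples were tested with limma 3.58.1 (R 4.3.3; lmFit, eBayes with trend) on log2(TPM + 1), with a coefficient per compound, both doses as its samples, DMSO libraries of a concentration averaged, and Benjamini-Hochberg adjustment over all genes. Calls had an adjusted p below 0.05. In simulated LAQ824 data 72 of 100 genes changed by 1 on the log2 scale and 96 of 100 changed by 2 were called, with 5 false calls. The same-numbered DMSO libraries of both concentrations shared a flow cell in the file headers; their deviations correlated at 0.0719. Alternatives were another pseudocount, scaling, filter, reference or error term, and leaving out samples.

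The genes and lists were chosen with earlier results of these data known. Named are the 9 genes, for each the 2 genes with the highest r over compounds, and in each list the largest called rise and fall under LAQ824 and SGC-CBP30 or, under N1302 and entinostat at 24 h, past 2-fold. Other genes and samples were named after their values were seen. Promoter windows came from RefSeq (GRCh38.p14), transcript lengths from the GENCODE annotation for GRCh37, matched for 89.0% of tested genes.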

Additional observations from a re-analysis of the deposited data

Results flagged for a closer look

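Of 18 checks for a sample or compound far from the rest of its group, 1 stood out, about as many as chance gives at 1 in 20. CREBBP was at 99.3 TPM in replicate 1 of 0.1% DMSO, while the other 3 DMSO libraries of the screen lay between 96.0 and 96.5 TPM. Its distance to the next library took up most of the range of the 4.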

How the results depend on the processing

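The count of 23 acetylation-axis calls stayed between 22 and 30 under the other settings, and between 17 and 24 with a sample left out, lowest without the 10 µM bromosporin library. The 0 calls on the methylation axis became 1 under median-ratio scaling, 1 with genes of a mean of at least 5 TPM, 4 with the DMSO libraries as separate samples, 3 with a reference from the same flow cell and 18 of 99 when each compound was fitted with DMSO alone, as were 32437 of 179949 combinations over all genes; leaving out a sample gave 0 to 7. On the acetylation axis, separate DMSO libraries gave 24 of 63 calls (27.6% over all genes). A reference from the same flow cell gave 25 (26.2%), and fitting with DMSO alone gave 30 (36.7%). The 4 methylation-axis calls with separate DMSO libraries stood beside 4.91% over all genes. The 3 with a reference from the same flow cell stood beside 4.04%. For PFI-3 and trametinib, separate DMSO libraries gave 1 call and fitting with DMSO alone 5 of 18 (18.7% over all genes). The 16 SGC-CBP30 contrasts ran from 10 to 18 with a sample left out. Between axes, 4 genes were called with a mean of at least 5 TPM (7.5% of all genes) and 4 at the high dose alone (9.87%), and leaving out a compound gave 0 to 5. The acetylation-axis dose effect ran from 0 to 1 call. The N1302 median of -1.53 was -1.22 under median-ratio scaling and -0.36 after subtracting the median of long genes, the latter chosen after seeing the data, as were the fits without UNC0638 or OJI-1. That subtraction used the median of genes of at least 8 kb for every acetyltransferase gene, and only 5 have transcripts that long. Relative to their own length class, the shorter KAT5, KAT2A, KAT8 and KAT2B were at -1.64, -0.79, -0.50 and -0.23 under N1302. With the replicate number as a block, 0 genes differed between DMSO concentrations, as without it. The causes were not tested. Of 1584 values of single genes, 1517 stayed on their side of the threshold, 41 calls were lost and 26 gained, and no called value changed sign. Entinostat values rest on 1 sample each, and dose differences stand in for replicate error throughout.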
